A study of Mus musculus with 6 samples.

Results

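Lipocalin 2, encoded by Lcn2, had the second largest fall of all genes when 4TO7 cells with Six2 overexpression were compared with cells that carried the empty pcDNA vector, and it is described here with 9 genes of cellular iron handling. The members were Lcn2, its receptor Slc22a17, the uptake genes Tfrc, Steap3 and Slc11a2, the storage gene Fth1, the exporter Slc40a1, the haem-degrading enzyme Hmox1 and the regulators Ireb2 and Aco1. All 10 were found among the 20848 genes measured. They held 137 of the 241576 probe sets of the table, between 6 and 22 per gene, each annotated to that gene alone. Lcn2 was chosen for its fall between these groups, so its values are a description without a test. The others were chosen by function, with results of these data known.

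The series holds 6 arrays of total RNA from 4TO7, a mouse mammary tumour cell line: 3 from cells transduced for Six2 overexpression and 3 from cells transduced with pcDNA. The homeobox factor Six2 is known from kidney progenitors, and the series title ties it to E-cadherin in metastasis. The labels do not say which species the Six2 insert came from, which promoter drove it, or whether the lines were clones or pools. Whether the replicates came from separate cultures is not stated, and p-values here weigh differences only against array-to-array spread, some or all of it perhaps technical. As bulk RNA was measured, fewer cells of a type and less RNA per cell cannot be told apart.

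Cells take up most iron as transferrin bound to the transferrin receptor, reduce it in the endosome and move it to the cytosol, where ferritin stores the surplus and ferroportin exports it. Iron regulatory proteins bind stem-loops called iron-responsive elements in the mRNAs of several of these genes, and so set mRNA stability or translation by the iron supply. Lipocalin 2 is a secreted protein that binds iron through small chelators called siderophores. It withholds iron from bacteria in innate immunity, and is made by neutrophils and by inflamed or transformed epithelium, breast tumours included.

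The stretch before the annotated start of Lcn2 is shown because this gene had the largest difference among the members. Those of Ireb2 and Aco1 are shown because they encode the pair of iron regulatory proteins. Each is the 250 bases upstream of the start in RefSeq (GRCm38.p6), 5′ to 3′ on the strand of the gene, with motif matches in capitals. The windows are chr2:32387740-32387989 on the minus strand for Lcn2, chr9:54863505-54863754 on the plus strand for Ireb2 and chr4:40143015-40143264 on the plus strand for Aco1.
Lcn2: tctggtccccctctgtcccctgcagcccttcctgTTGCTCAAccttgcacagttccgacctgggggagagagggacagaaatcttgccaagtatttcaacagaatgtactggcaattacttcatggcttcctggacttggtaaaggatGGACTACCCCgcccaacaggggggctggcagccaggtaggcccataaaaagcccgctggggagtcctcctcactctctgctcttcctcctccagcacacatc
Ireb2: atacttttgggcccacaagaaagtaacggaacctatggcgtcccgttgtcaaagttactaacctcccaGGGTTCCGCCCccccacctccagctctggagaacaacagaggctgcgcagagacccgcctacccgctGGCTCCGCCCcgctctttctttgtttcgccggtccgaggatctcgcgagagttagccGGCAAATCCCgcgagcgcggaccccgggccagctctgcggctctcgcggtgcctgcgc
Aco1: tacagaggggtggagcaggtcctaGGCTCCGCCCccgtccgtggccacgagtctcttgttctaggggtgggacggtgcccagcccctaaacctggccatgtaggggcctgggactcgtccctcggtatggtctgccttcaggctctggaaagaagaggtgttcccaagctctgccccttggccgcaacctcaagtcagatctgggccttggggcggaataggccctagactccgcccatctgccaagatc

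Both strands were searched for the NF-kB letters, GGG and CC with 5 bases of any kind between them, the C/EBP letters TTGCNNAA, the STAT letters TTCNNNGAA, the letters TGATAC, a core known from sites of sine oculis homeobox factors, the TATA box letters TATAAA, the antioxidant response element letters TGACNNNGC and the hypoxia response element letters ACGTG. NF-kB and C/EBP are known inducers of Lcn2. The Lcn2 window held 1 match to the C/EBP letters, which begins at position -216 and is found in 9.56% of all 32851 windows of this length. It also held 1 match to the NF-kB letters at -102 on the other strand, a sequence so loosely defined that 45.8% of windows hold it. The Ireb2 window held 4 matches to the NF-kB letters, of which those at -182 and -181 overlap, and the Aco1 window held 1. No other letters searched were found in these 3 windows. A match is a description of letters, not a site. The table of start sites had windows for 7 of the 10 members.

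Lcn2 was 16.3-fold lower in Six2 arrays. Its log2 values, each the median over 6 probe sets, were 4.96, 5.25 and 5.41 in the Six2 arrays, against 9.38, 9.23 and 9.09 in the control arrays. All Six2 arrays lay far below all control arrays. The mean was 5.21 ± 0.23 in Six2 arrays and 9.23 ± 0.15 in control arrays (SD, n = 3 each), a difference of -4.03 (SE 0.14), here and below Six2 minus control on the log2 scale. Only Pate14 fell more (-4.12), and the next largest falls were those of Mustn1 (-3.81), Ly6a (-3.78) and Rassf4 (-3.46). The Six2 means of these 5 genes lay between 2.54 and 5.21, and without detection calls it is not known whether they exceed background, so the folds and their order are open to that limit. All 6 probe sets of Lcn2 were lower in Six2 arrays, by -2.43 to -5.10, and none had overlapping groups. The smallest fall was in probe set 10481633, which averaged 5.27 in Six2 arrays and 7.70 in control arrays. The largest was in 10481631, which averaged 3.98 in Six2 arrays and 9.09 in control arrays.

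Slc22a17, the cell surface receptor of lipocalin 2, was dim and its probe sets disagreed. Its values were 4.99, 4.34 and 4.71 in Six2 arrays, against 4.01, 4.15 and 4.15 in control arrays. The groups did not overlap, but the difference of 0.58 (SE 0.16) did not pass the threshold, which was an adjusted p under 0.05 by Benjamini-Hochberg with every gene included (limma adjusted p = 0.0593). Of its 17 probe sets, only 1 had a mean above 6. That one, 10419890, averaged 6.94 in Six2 arrays and 7.22 in control arrays, a difference of -0.28. Probe set 10419886 was lower in Six2 arrays by -1.46 (limma adjusted p = 0.0238 over all probe sets), while 10419885 was higher by 1.22 (limma adjusted p = 0.172). The median over the 17 probe set differences was 0.16. The direction of this gene depended on how its probe sets were combined.

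**Figure D1:**
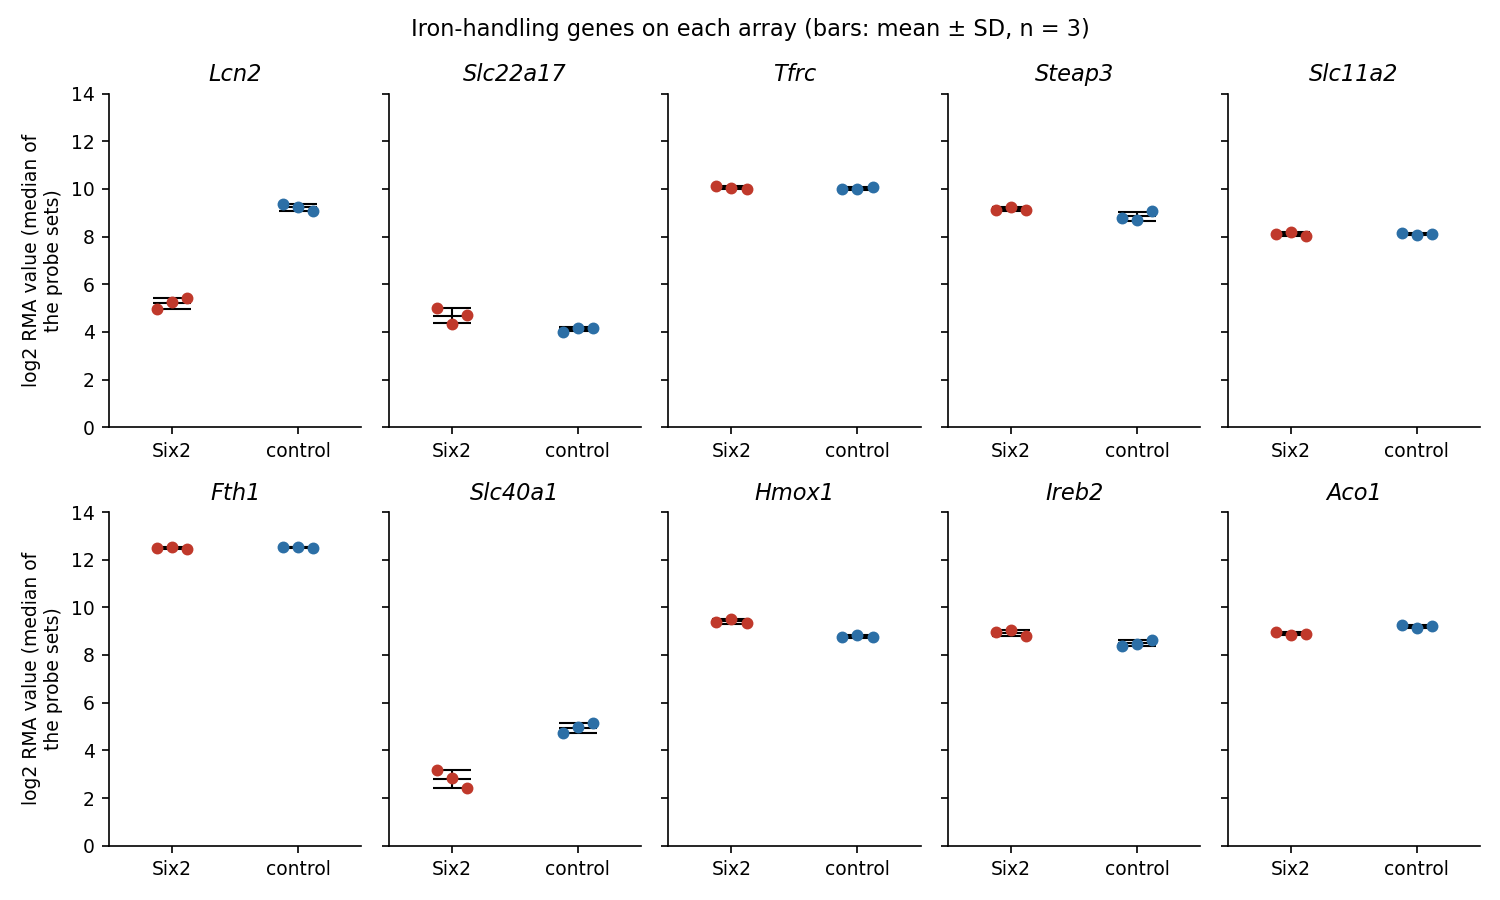
Each panel shows the log2 value of a member on the 3 Six2 arrays (left, red) and the 3 control arrays (right, blue), with the mean ± SD. Lcn2 and Slc40a1 stand far lower in Six2 arrays, Hmox1 and Ireb2 somewhat higher, and Tfrc, Slc11a2 and Fth1 overlap between the groups.

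Among the 9 members other than Lcn2, 2 rose (Hmox1, Ireb2), 1 fell (Slc40a1) and 6 did not pass. Over all genes 14.7% passed, 6.70% higher and 8.02% lower in Six2 arrays. Among genes with a mean above 6, 24.6% passed, and 8 of the 10 members had a control mean above 6. The groups did not overlap in 6 of the 9, and in 35.8% of all genes. Of the 131 probe sets of these members, 4 rose and 7 fell, while over all probe sets 2.80% passed, 1.20% higher and 1.60% lower. The groups did not overlap in 34 of the 131 with higher and 30 with lower Six2 values, and in 29.8% of all probe sets.

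None of the 3 members of transferrin-iron uptake passed, and the intervals of Tfrc and Slc11a2 included 0 while that of Steap3 did not. Tfrc, the transferrin receptor, had 10.13, 10.05 and 9.98 in Six2 arrays, against 10.01, 9.98 and 10.08 in control arrays. The groups overlapped, and the difference of 0.034 (SE 0.09, limma adjusted p = 0.838) had a 95% interval of -0.17 to 0.24. Slc11a2, the divalent metal transporter DMT1 that carries iron out of the endosome, had 8.10, 8.17 and 8.02 in Six2 arrays, against 8.15, 8.05 and 8.09 in control arrays. Its difference of 0.0021 (SE 0.09, limma adjusted p = 0.991) had an interval of -0.21 to 0.21. These intervals cover mRNA levels only.

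Single probe sets of these uptake genes went further from 0 without passing. In Slc11a2, whose transcripts are known to differ at both ends, with and without an iron-responsive element, 15 of 19 probe sets had a difference above 0. The most extreme, 10432592, averaged 3.75 in Six2 arrays and 2.48 in control arrays (1.27, limma adjusted p = 0.0828), and was its only probe set with a mean under 6. The probe sets were not assigned to transcripts here. In Tfrc, 14 of 18 probe sets were above 0, with differences from -0.14 to 0.94.

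Steap3, the endosomal reductase that turns ferric into ferrous iron, was higher in Six2 arrays without passing. It had 9.10, 9.25 and 9.13 in Six2 arrays, against 8.78, 8.68 and 9.07 in control arrays. The groups did not overlap, though control replicate 3 came close to the Six2 arrays, and the difference was 0.32 (SE 0.12, limma adjusted p = 0.136, 95% interval 0.026 to 0.61). Of its 10 probe sets, 8 were above 0, while 10357258 averaged 7.71 in Six2 arrays and 8.60 in control arrays (-0.89, limma adjusted p = 0.153). Steap3 lies on chromosome 1, where the median difference of 497 genes with a mean above 6 was 0.44. With chromosome medians subtracted its difference was -0.12 (limma adjusted p = 0.544).

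Fth1, the ferritin heavy chain that oxidises and stores iron, was bright on all arrays and close in both groups. It had 12.47, 12.52 and 12.45 in Six2 arrays, against 12.52, 12.55 and 12.49 in control arrays. The groups overlapped, with a difference of -0.041 (SE 0.08, limma adjusted p = 0.789, 95% interval -0.23 to 0.15). Its 6 probe sets lay between -0.20 and 0.0044. Ferritin heavy chain has near-identical processed copies in the genome, so the share of signal from the gene itself is uncertain. Ferritin is regulated mainly in translation, which arrays do not measure.

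Slc40a1, which encodes the iron exporter ferroportin, fell 4.36-fold. Its values were 3.17, 2.86 and 2.42 in Six2 arrays, against 4.72, 4.96 and 5.14 in control arrays. The groups stood well apart, with means of 2.81 ± 0.38 in Six2 arrays and 4.94 ± 0.21 in control arrays (SD, n = 3 each) and a difference of -2.13 (SE 0.20, limma adjusted p = 0.00136). All 9 probe sets were lower in Six2 arrays without overlap between the groups, by -1.29 to -2.87, and 6 of them passed. None of the 9 had a mean above 6. The table carries no detection calls, so whether the Six2 level lies above background is not known, and RMA compresses folds of dim genes. The call was lost with the brightest probe set, 10354380 (-1.29, limma adjusted p = 0.105, against 2.02e-05 to 0.105 over its 13 alternatives). Slc40a1 also lies on chromosome 1, where the median of brighter genes was above 0, opposite to its own fall.

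Hmox1, the inducible haem oxygenase that frees iron from haem, rose 1.56-fold. It had 9.37, 9.53 and 9.35 in Six2 arrays, against 8.75, 8.83 and 8.74 in control arrays. The lowest Six2 array stood clearly above the highest control array, and the difference was 0.64 (SE 0.09, limma adjusted p = 0.00591). All 8 probe sets were higher in Six2 arrays, by 0.13 to 0.95, and 3 of them passed. The largest rise was in 10572903, which averaged 9.75 in Six2 arrays and 8.80 in control arrays (limma adjusted p = 0.0226). The call held in all 14 alternatives, at 0.47 to 0.83. The smallest of these was with chromosome medians subtracted, since the median of 474 genes on chromosome 8 was 0.18.

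Of the 2 genes of iron regulatory proteins, Ireb2 rose close to the threshold and Aco1 did not pass. Ireb2, which encodes iron regulatory protein 2, a protein that is degraded when iron is plentiful, had 8.95, 9.06 and 8.80 in Six2 arrays, against 8.39, 8.47 and 8.65 in control arrays. It rose 1.35-fold (0.43, SE 0.11, limma adjusted p = 0.0447), and the groups did not overlap, with Six2 replicate 3 close to control replicate 3. Of its 22 probe sets, 20 were above 0, and 1 passed, 10585445, at 8.41 in Six2 arrays and 7.48 in control arrays (0.93, limma adjusted p = 0.0290). The call rested close to the threshold and was lost in 8 of 14 alternatives. Among them were the brightest probe set (0.15, limma adjusted p = 0.418), chromosome medians subtracted (0.32, limma adjusted p = 0.106) and the removal of any control array (0.38 to 0.50) or of Six2 replicate 1 or 2 (0.42 and 0.37). Over all 14 the adjusted p was 0.00804 to 0.418.

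Aco1, which encodes cytosolic aconitase, an enzyme that becomes iron regulatory protein 1 when it loses its iron-sulphur cluster, had 8.95, 8.86 and 8.89 in Six2 arrays, against 9.26, 9.15 and 9.20 in control arrays. All 3 Six2 values were lower than the lowest control value. The difference of -0.31 (SE 0.09, 95% interval -0.51 to -0.10) just missed the threshold (limma adjusted p = 0.0562). Of its 22 probe sets, 21 were lower in Six2 arrays and 16 of these had no overlap between groups, though no probe set passed over all rows (9 had an unadjusted p under 0.05). It passed in 4 of 14 alternatives, with adjusted p from 0.00989 to 0.181 and differences from -0.36 to -0.24. Averaging the probe sets was among them (-0.36, limma adjusted p = 0.0248). Whether Ireb2 and Aco1 differ from each other in their response was not tested.

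**Figure D2:**
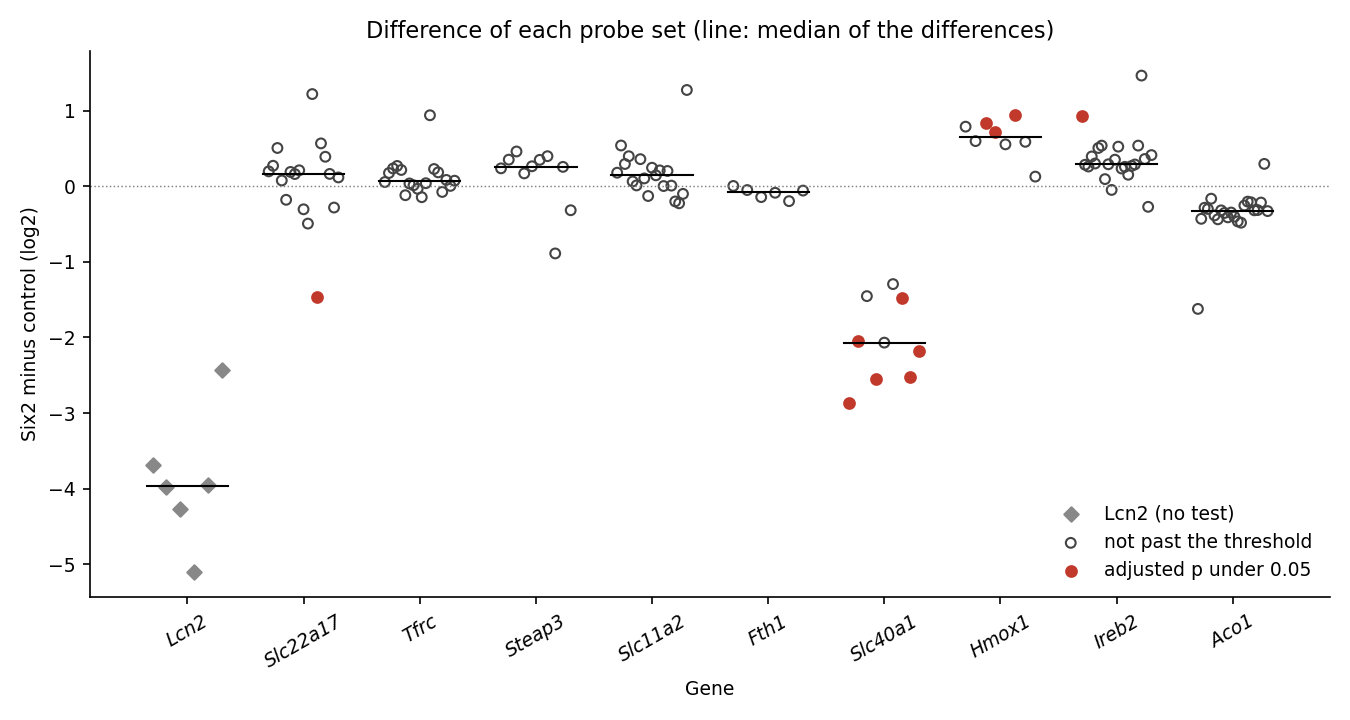
Each point is the difference of a probe set, Six2 minus control on the log2 scale, grouped by gene, with filled red points past the threshold over all probe sets and grey diamonds for the untested Lcn2. The line is the median of the differences of a gene. All points of Lcn2 and Slc40a1 lie below 0, all of Hmox1 above it, and those of Slc22a17 on both sides.

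The rest of the pathway was covered by 7 lists of iron and haem genes chosen by function. Of their 99 genes, 90 had probe sets annotated to them alone. Of these 90, 4 rose, 6 fell and 80 did not pass, and their median difference was -0.058, against -0.046 over all genes. That is 11.1% of the lists, against 14.7% of all genes. Of the 90, 61 had a control mean above 6, and of all genes with a mean above 6, 24.6% passed. With chromosome medians subtracted, 1 rose and 8 fell. An unadjusted p under 0.05 in limma was found for 28 of the 90, and for 6314 of all 20848 genes.

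Uptake genes outside the transferrin route held the largest of these falls. Slc39a8, the transporter ZIP8 for zinc, manganese and iron, had 5.43, 5.95 and 5.60 in Six2 arrays, against 7.11, 7.23 and 6.94 in control arrays. This was a 2.71-fold fall with wide separation of the groups (-1.44, SE 0.15, limma adjusted p = 0.00211). Scara5, a receptor for ferritin, averaged 8.36 ± 0.05 in Six2 arrays and 8.92 ± 0.09 in control arrays (SD, n = 3 each), a fall with no overlap (-0.56, limma adjusted p = 0.00919). The call was lost with the brightest probe set (-0.50). Among uptake genes 12.5% passed, against 14.7% of all genes. The other 14 of the 16 uptake genes did not pass. They included Slc39a14, the transporter ZIP14 (-0.16), Steap2 (0.089) and Trf, which encodes transferrin (0.052).

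Storage and chaperone genes changed in 1 of 6 cases, or 16.7%, against 14.7% of all genes. Bola2, which with Glrx3 forms a cytosolic iron chaperone, fell to 7.84 ± 0.12 in Six2 arrays, against 8.44 ± 0.06 in control arrays (SD, n = 3 each; -0.60, limma adjusted p = 0.00894). Glrx3 was at -0.25 and did not pass. Ncoa4, the receptor that delivers ferritin to lysosomes, was at 0.48 (limma adjusted p = 0.381).

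None of the 12 genes of export and the hepcidin axis passed, against 14.7% of all genes. Only 4 of the 12 had a control mean above 6. An unadjusted p under 0.05 in limma was found for 3 of the 12, against 6314 of all 20848 genes. Cp, the ferroxidase ceruloplasmin that works with ferroportin, was at -0.31 (limma adjusted p = 0.0811), with Six2 arrays at 9.91 and control arrays at 10.22 on average. Erfe, the hepcidin suppressor erythroferrone, was at -0.47 (limma adjusted p = 0.0523). Neo1, the hemojuvelin-binding receptor neogenin, was at 0.27 (limma adjusted p = 0.0875). Of the 8 regulators 12.5% passed, against 14.7% of all genes. Hif1a rose, to 11.20 in Six2 arrays against 10.86 in control arrays (0.34, limma adjusted p = 0.0348). That call was lost in 10 of 14 alternatives, with adjusted p from 0.000632 to 0.367. Nfe2l2, a known activator of Hmox1, was at -0.068, and Bach1, its known repressor, at 0.087, and neither passed. Fbxl5, the ubiquitin ligase subunit that removes Ireb2 protein, was at 0.039.

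Haem genes went both ways. Of the synthesis genes 12.5% passed and of the transport and breakdown genes 20%, against 14.7% of all genes. Ppox, the penultimate enzyme of haem synthesis, rose to 7.29 ± 0.11 in Six2 arrays, against 6.59 ± 0.11 in control arrays (SD, n = 3 each; 0.70, limma adjusted p = 0.00676), and 7 of the 8 synthesis genes did not pass. Among 15 genes of haem transport and breakdown, Flvcr1, known as a haem exporter, rose (0.65, limma adjusted p = 0.00684). Blvrb, a biliverdin reductase that acts after haem oxygenase, fell (-0.59, limma adjusted p = 0.0120), as did the porphyrin transporter Abcb6 (-0.41, limma adjusted p = 0.0203). Hmox2, the constitutive haem oxygenase, was at -0.28 and did not pass. Ppox, Flvcr1 and Abcb6 lie on chromosome 1. With chromosome medians subtracted, Ppox (0.26) and Flvcr1 (0.21) did not pass, while Abcb6 was at -0.85 and passed (limma adjusted p = 0.00148). The call of Abcb6 was lost in 6 of 14 alternatives, with adjusted p from 0.00148 to 0.0763. That of Blvrb was lost in 3 of 14, with limma adjusted p from 0.00187 to 0.177.

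Of 25 genes of mitochondrial iron and iron-sulphur clusters, 1 rose, 1 fell and 23 did not pass, against 14.7% of all genes passing. Of the 25, 23 had a control mean above 6, and of all genes with a mean above 6, 24.6% passed. An unadjusted p under 0.05 in limma was found for 8 of the 25, and for 6314 of all 20848 genes. Nubp2, a scaffold for cytosolic iron-sulphur clusters, fell 1.95-fold to 9.55, 9.62 and 9.55 in Six2 arrays, against 10.54, 10.54 and 10.53 in control arrays (-0.96, limma adjusted p = 0.000882). Cisd2, an iron-sulphur protein of outer mitochondrial and endoplasmic reticulum membranes, rose to 7.61 in Six2 arrays, against 7.08 in control arrays (0.54, limma adjusted p = 0.00816). It lies on chromosome 3 and was at 0.19 without passing when chromosome medians were subtracted. The mitochondrial iron importers Slc25a37 (-0.011) and Slc25a28 (-0.15) did not pass.

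**Figure D3:**
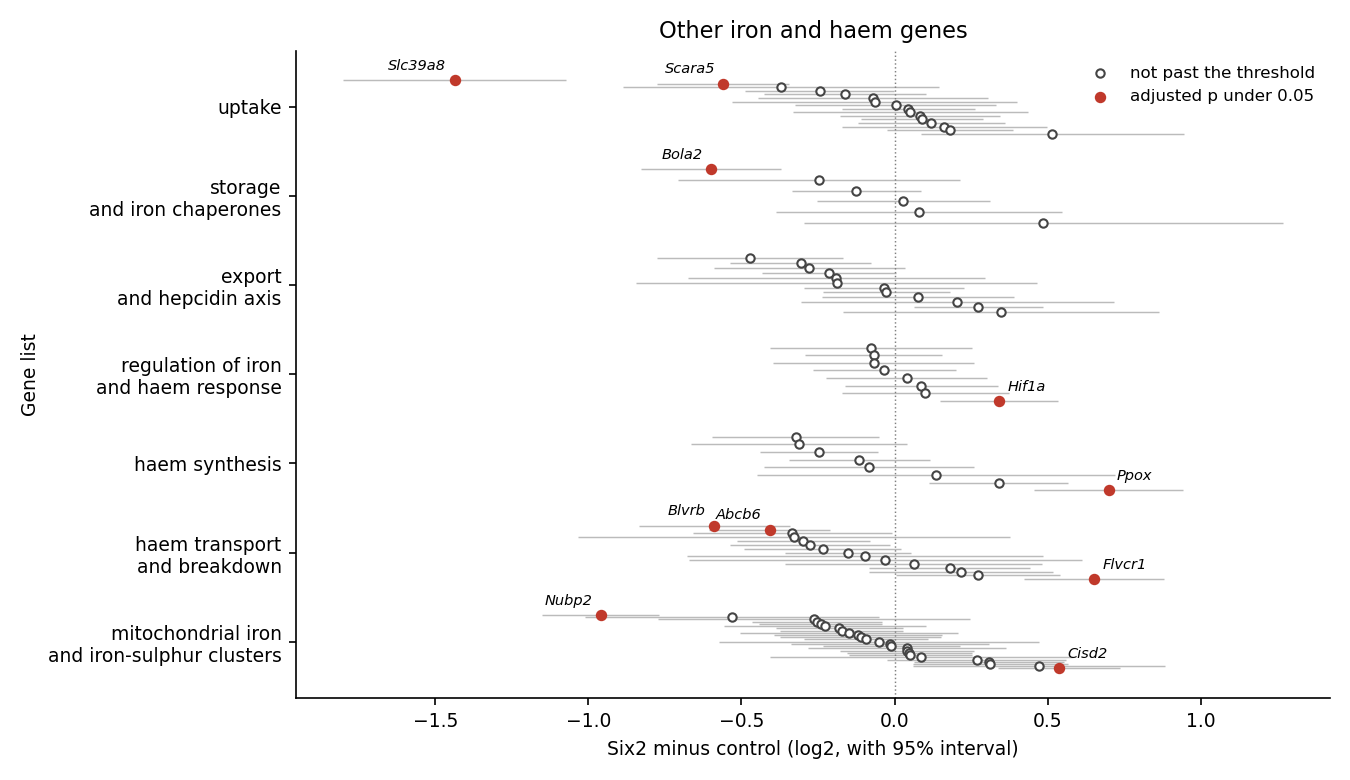
Each point is the difference of a gene of the 7 lists, Six2 minus control on the log2 scale, with its 95% interval, and red points passed the threshold. Slc39a8 (-1.44) and Nubp2 (-0.96) lie farthest to the left and Ppox (0.70) and Flvcr1 (0.65) farthest to the right, while most genes lie near 0.

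Iron is also the driver of ferroptosis, a death by lipid peroxidation. Of 12 genes linked to it, 0 rose and 1 fell, while over all genes 14.7% passed, 6.70% higher and 8.02% lower. An unadjusted p under 0.05 in limma was found for 6 of the 12, and for 6314 of all 20848 genes. The fall was in Slc7a11, the cystine importer that feeds glutathione synthesis. It had 8.57, 8.56 and 8.41 in Six2 arrays, against 9.39, 9.39 and 9.52 in control arrays, far apart (-0.92, SE 0.09, limma adjusted p = 0.00175). Its partner chain Slc3a2 (-0.33, limma adjusted p = 0.0637) and Gpx4, the peroxidase that guards against ferroptosis (-0.24, limma adjusted p = 0.179), did not pass. Neither did Acsl4 (-0.37, limma adjusted p = 0.0644) and Lpcat3 (-0.34, limma adjusted p = 0.0807), enzymes of phospholipid synthesis that promote ferroptosis.

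Genes often induced together with Lcn2 in the acute phase response changed in 4 of 15 cases, 1 higher and 3 lower, against 14.7% of all genes, 6.70% higher and 8.02% lower. Only 4 of the 15 had a control mean above 6. C3, the central complement component, fell 3.78-fold, with 5.60, 5.65 and 6.04 in Six2 arrays, against 7.73, 7.69 and 7.63 in control arrays (-1.92, SE 0.13, limma adjusted p = 0.000462). The fall was smaller in the brightest probe set (-1.002, limma adjusted p = 0.0143, against 8.86e-06 to 0.0143 over its 14 alternatives). Cebpb, a C/EBP factor known to induce Lcn2, fell to 8.61, 8.63 and 8.53 in Six2 arrays, against 9.17, 9.18 and 9.21 in control arrays. The difference of -0.60 (SE 0.08, limma adjusted p = 0.00533) rests on 1 probe set. Ptx3, a pentraxin, fell by 1.73 on the log2 scale (limma adjusted p = 0.00111), but was at 0.049 with its brightest probe set, where it did not pass. Mmp9, a gelatinase bound by human lipocalin 2, rose (0.75, limma adjusted p = 0.0169), with 5.40 in Six2 arrays and 4.65 in control arrays on average, a call lost in 4 of 13 alternatives (0.61 to 0.74). Nfkbiz, an NF-kB cofactor known to be needed for Lcn2 induction, was at 0.049, Cebpd at 0.091 and Il6 at -0.011, and none of these passed.

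Of 15 other members of the lipocalin family, 0 rose and 1 fell, against 14.7% of all genes passing. None of the 15 had a mean above 6 in either group. The fall was in Lcn5, at 3.74 in Six2 arrays and 4.38 in control arrays (-0.65, limma adjusted p = 0.0263), and its call was lost in 8 of 13 alternatives.

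The genes nearest to Lcn2 over the 6 arrays were sought by the root mean square difference between values centred on each gene's mean. They were Pate14 (0.20), Mustn1 (0.24), Mcpt8 (0.34), Ly6a (0.35) and Rassf4 (0.39), in log2 units. With groups this far apart, the measure mainly finds genes with a fall of like size, which ranged here from -3.44 to -4.12.

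The labels were checked with markers. Six2 was dim, at 3.86 ± 0.23 in Six2 arrays and 3.52 ± 0.23 in control arrays (SD, n = 3 each; 0.33, limma adjusted p = 0.215), and the groups overlapped. The overexpression is taken from the labels. Six2 passed in 3 of 13 alternatives, at 1.19 with the brightest probe set (limma adjusted p = 0.0480, over all alternatives 0.0242 to 0.479). Beside the marker counts that follow, 6.70% of all genes rose and 8.02% fell. An unadjusted p under 0.05 in limma was found for 6314 of 20848 genes. Of 8 mammary epithelial markers 0 rose and 5 fell, among them Cdh1 (-3.16, limma adjusted p = 6.56e-05) and Krt8, at 11.77 in Six2 arrays and 12.33 in control arrays (-0.56, limma adjusted p = 0.00787). Their linear values were summed, so the sum is mostly Krt8 and Krt18, the 2 of 8 with a mean above 6. On the log2 scale this summed level was 12.35 to 12.50 in Six2 arrays and 13.09 to 13.18 in control arrays. It moved with the fall of Lcn2, and its part in that fall was not tested. Neutrophils store lipocalin 2, but of 9 neutrophil markers none passed (2 with an unadjusted p under 0.05 in limma), and 8 had a mean of 6 or less. Their summed level was 6.92 to 7.14 in Six2 arrays and 7.22 to 7.31 in control arrays. Macrophages are rich in ferroportin and haem oxygenase. Of 8 macrophage markers, 0 rose and 2 fell, the dim Adgre1 (-0.62, mean 3.28 over all arrays) and Ptprc (-0.63, mean 4.10). Mrc1, higher by 1.01, missed the threshold (limma adjusted p = 0.0798). Only 1 of these markers, Cd68, had a mean above 6. Their summed level was 7.48 to 7.85 in Six2 arrays and 7.848 to 8.09 in control arrays. Its part in the results for Slc40a1 and Hmox1 was not tested. None of the 6 erythroid markers measured passed (0 with an unadjusted p under 0.05 in limma), and 0 had a mean above 6. Of 6 fibroblast markers, 1 fell, the dim Lum (-0.48, mean 2.39 over all arrays), and 1 had a mean above 6.

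**Figure D4:**
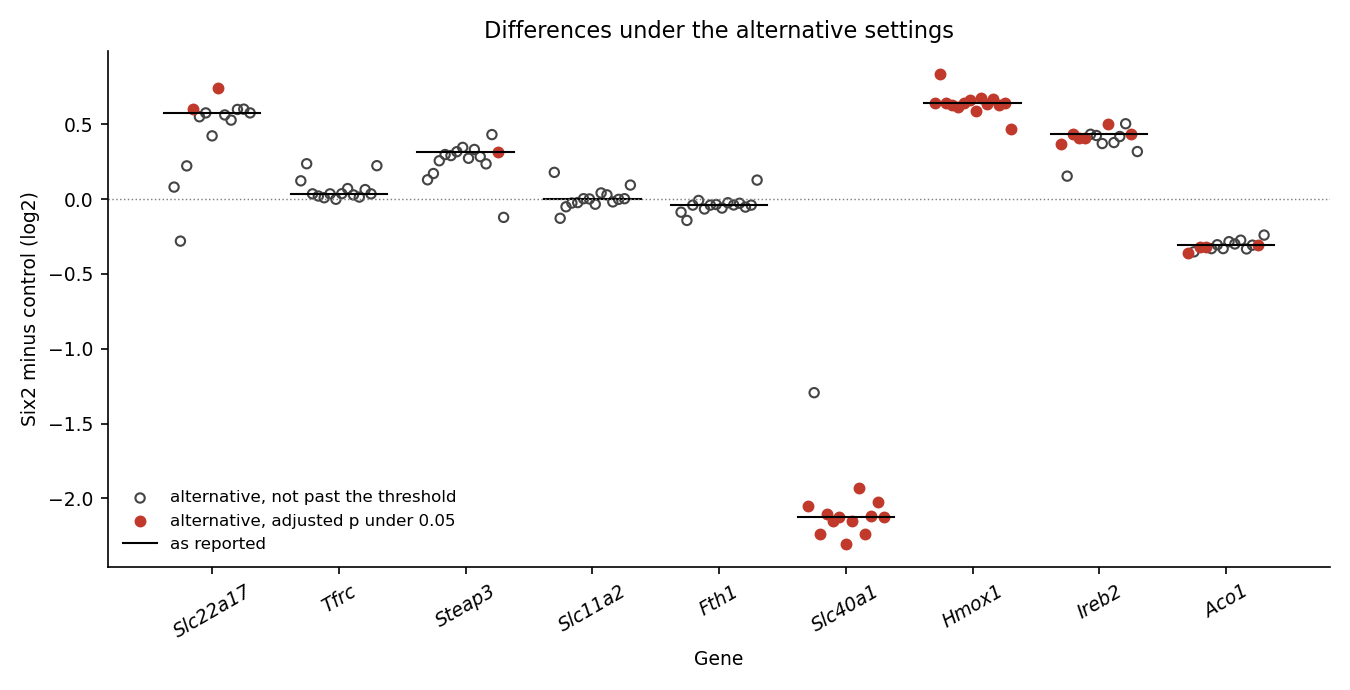
For each member other than Lcn2, points show the difference, Six2 minus control on the log2 scale, under each alternative setting, red where it passed the threshold, and the line is the difference as reported. Hmox1 stays past the threshold throughout, Slc40a1 loses it with 1 setting, Ireb2 with 8, and Slc22a17, Steap3, Slc11a2, Tfrc and Fth1 have a setting on the other side of 0.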

How the data were processed

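Total RNA of 6 arrays was labelled with biotin, starting from 6 ug per the labels' protocols. The deposited values are log2 signals per probe set, and the submitters' processing notes name RMA and Affymetrix Power Tools. RMA makes array distributions alike, so a change in total RNA per cell is not visible. The sources used here give no versions, filters, genome build or scan dates, and batch and group cannot be told apart. The number of arrays limits the precision.

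The platform annotation gave 1 gene symbol to 213361 of 241576 rows, several to 5107 and none to 23108. Among 20893 symbols, 2354 were updated through synonyms in a RefSeq table (GRCm38.p6) and 43 were not found. Each gene was given the median of its probe sets. Groups were compared with limma 3.58.1 (lmFit, eBayes) in R 4.3.3, with Benjamini-Hochberg adjustment over all genes or all probe sets, two-sided, with calls at 0.05. Same-numbered arrays did not deviate together (correlations over genes -0.0064, -0.0084 and -0.0537), so no block was used. Members and lists were chosen with earlier results of these data known. Named genes were the members, Six2, Cdh1, up to 4 changed genes per list and direction, and the 5 genes nearest to Lcn2. Genes named beyond these were chosen after their values were seen. Those that did not pass were chosen by function, and Krt8, Krt18, Adgre1, Ptprc and Lum are markers that passed.

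In simulated data of this size (20848 genes, 200 of them changed), limma called 10% of 50 genes with a difference of 0.5. It called 60% of 50 with a difference of 1 and 100% of 50 with a difference of 2. Of its calls, 1.46% were false. In the data far more genes passed (3068), and the adjusted threshold loosens as more genes change, so these shares need not hold here. Small differences can still be missed. Alternatives were the mean or brightest probe set, dim rows left out (30th percentile and below), quantile normalization, median centring, a replicate block, each array left out, a robust variance trend, and chromosome medians subtracted for genes with a mean above 6.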

Additional observations from a re-analysis of the deposited data

How the results depend on the processing

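The fall of Lcn2 (-4.13 to -3.90) and the rise of Hmox1 (0.47 to 0.83) kept their direction in all 14 alternatives. Lcn2 was chosen for its fall in these same arrays, so its range is a description only. The number of changed genes, 3068 as reported, was 4858 with the mean of the probe sets, 1828 with a replicate block and 1565 to 2447 without 1 array. Of the 9 tested members, 3 passed as reported, 1 with the brightest probe set, 5 with quantile normalization and 5 with a robust variance trend. Of the other iron and haem genes, 10 passed as reported, 20 with the mean of the probe sets, 6 with the brightest probe set and 19 with a robust variance trend. Of the 131 probe sets, 11 passed as reported, 0 with a replicate block, 20 with a robust variance trend and 0 to 3 without 1 array. The fall of Slc40a1 did not pass with the brightest probe set (-1.29). The rise of Ireb2 did not pass with the brightest probe set (0.15), a replicate block (0.43, limma adjusted p = 0.108) or chromosome medians subtracted (0.32), and ranged from 0.37 to 0.50 without 1 array. Slc22a17 turned to -0.28 with the brightest probe set and passed with quantile normalization (0.60) and without Six2 replicate 2 (0.74), its values without 1 array being 0.42 to 0.74. Aco1 passed with the mean of the probe sets (-0.36), dim rows left out (-0.32), quantile normalization (-0.32) and a robust variance trend (-0.31). Steap3 passed with a robust variance trend (0.32) and turned to -0.12 with chromosome medians subtracted, and Fth1 turned to 0.13 there. Slc11a2, near 0 as reported, was at -0.13 with the brightest probe set, -0.052 with dim rows left out, -0.027 with quantile normalization, -0.024 with arrays centred, and -0.035 to 0.041 without 1 array. Tfrc was at -0.0018 to 0.070 without 1 array. It moved further with the brightest probe set (0.24), chromosome medians subtracted (0.22) and the mean of the probe sets (0.12), without passing. Ptx3 turned to 0.049 when dim rows were removed or its brightest probe set was used. The cause was not tested in any of these. Chromosome medians gave no value for Slc22a17 and Slc40a1, whose means lie under 6. Apart from Ireb2, Blvrb, Abcb6, Lcn5 and Hif1a, the replicate block changed no call of the members or of the named genes of the iron, ferroptosis, acute phase and lipocalin lists. Alternatives were not run for single marker genes other than Cdh1, or for the genes nearest to Lcn2. Background correction could not be varied from summarised values, and signal near background limits what Slc40a1, Slc22a17 and the lipocalin family can show.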
